A study of Mus musculus with 4 samples.

Results

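Fatty acids must be taken up and coupled to coenzyme A before a cell can burn, store or build them into membranes, and PPARγ binding is described here at 10 mouse genes for these steps. They are 5 long-chain acyl-CoA synthetases (Acsl1, Acsl3, Acsl4, Acsl5 and Acsl6), the bubblegum synthetase Acsbg1, the fatty acid transport proteins Slc27a1 and Slc27a4, and the acetyl-CoA synthetases Acss1 and Acss2. The genes were taken by name from 20923 protein-coding genes, and all 10 are described whether or not a peak lay near them. They were chosen with earlier results of these data known. PPARγ was profiled by HT-ChIPmentation, a form of ChIP in which a transposase adds the sequencing adapters to the bead-bound chromatin. Alveolar macrophages (AMs) came from the bronchoalveolar lavage of 9-week-old WT C57BL/6J mice and were sorted by flow cytometry, and all libraries used are WT. The 2 ChIP libraries, PPARG_k1 (library 1) and PPARG_k2_AMS2 (library 2), made with a Diagenode antibody, had 1 list of peaks each, and 2 input libraries served as controls. Separate animals are not stated as their source, so agreement between them may be technical.

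Acyl-CoA synthetases use ATP to form the thioester that traps a fatty acid inside the cell, and the SLC27 proteins combine such an activity with transport. PPARγ is a nuclear receptor that is activated by fatty acids and binds DNA as a heterodimer with RXR at a DR1, which is AGGTCA repeated in the same direction after 1 base. In AMs, which clear surfactant lipid from the airspace, PPARγ is required for maturation and for the lipid metabolism programme.

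A region is a stretch in which peaks of both libraries overlap by at least 1 bp, given to the protein-coding gene whose transcription start site (TSS) is nearest to its centre. There were 20233 regions, and 13 of them were nearest to 6 of the 10 genes: 6 at Acss1, 3 at Acsl1, and 1 each at Acsl4, Acsl5, Slc27a1 and Acss2. Acsl3, Acsl6, Acsbg1 and Slc27a4 had none. Of all protein-coding genes, 31.6% had at least 1 region.

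Summit windows of the genes' regions are printed here because they show which known motifs lie under the peaks. They are 201 bp of the mouse genome (RefSeq, GRCm38.p6, the mm10 assembly) centred on the library 1 summit, or on the library 2 summit for the Acss1 window nearer the promoter in intron 2. Capitals mark matches, on either strand, to AGGTCA, to the PU.1 site GAGGAAGT, to the C/EBP sites TTGCNNAA and TTGNGCAA, to the AP-1 site TGANTCA and to the RUNX site TGTGGTT. The first 5 belong to the best region of each gene. The 2 from Acss1 intron 2, which include its equally high region, were added after their values were seen, because they hold an AGGTCA. Of the 2 summits of a region, the one whose window held more kinds of motif was used, and library 1 where equal. Acsl4 and Acss1 are transcribed from the minus strand and the others from the plus strand. The Acsl5 window lies in a 5′ UTR and is not printed.
Acsl1 promoter, chr8:46470192-46470392, plus strand: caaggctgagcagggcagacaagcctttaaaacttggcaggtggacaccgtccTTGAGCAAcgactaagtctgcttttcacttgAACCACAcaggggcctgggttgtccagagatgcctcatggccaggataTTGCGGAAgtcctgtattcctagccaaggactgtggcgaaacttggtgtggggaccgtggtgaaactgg
Acsl4 intron 1, chrX:142389532-142389732, plus strand: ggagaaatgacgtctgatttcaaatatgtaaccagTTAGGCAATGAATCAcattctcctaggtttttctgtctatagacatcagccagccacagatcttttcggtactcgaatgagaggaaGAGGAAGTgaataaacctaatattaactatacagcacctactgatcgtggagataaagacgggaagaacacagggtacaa
Slc27a1 promoter, chr8:71568325-71568525, plus strand: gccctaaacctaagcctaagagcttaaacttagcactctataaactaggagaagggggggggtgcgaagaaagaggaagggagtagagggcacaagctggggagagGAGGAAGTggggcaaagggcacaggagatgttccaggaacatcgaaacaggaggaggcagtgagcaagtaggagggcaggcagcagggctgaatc
Acss2 promoter, chr2:155517808-155518008, plus strand: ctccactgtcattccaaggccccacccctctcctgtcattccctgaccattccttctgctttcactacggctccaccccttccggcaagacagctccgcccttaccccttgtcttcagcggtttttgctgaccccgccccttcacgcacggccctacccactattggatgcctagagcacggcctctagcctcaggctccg
Acss1 upstream, chr2:150673997-150674197, plus strand: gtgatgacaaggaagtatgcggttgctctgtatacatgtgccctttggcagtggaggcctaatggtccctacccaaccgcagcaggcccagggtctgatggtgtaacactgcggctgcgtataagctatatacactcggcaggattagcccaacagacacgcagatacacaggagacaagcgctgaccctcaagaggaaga
Acss1 intron 2, nearer the promoter, chr2:150655350-150655550, plus strand: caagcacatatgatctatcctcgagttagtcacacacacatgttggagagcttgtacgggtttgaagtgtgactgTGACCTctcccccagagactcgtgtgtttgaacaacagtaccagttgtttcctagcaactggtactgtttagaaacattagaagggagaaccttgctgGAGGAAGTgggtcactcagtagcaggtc
Acss1 intron 2, farther from the promoter, chr2:150645330-150645530, plus strand: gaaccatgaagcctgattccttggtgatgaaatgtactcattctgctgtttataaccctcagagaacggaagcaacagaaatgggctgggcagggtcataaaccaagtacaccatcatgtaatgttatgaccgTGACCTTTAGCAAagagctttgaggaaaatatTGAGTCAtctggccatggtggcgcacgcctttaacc

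The depth behind each peak could be worked out from the deposited values. The fold enrichment and p-value of every peak (100% of both lists) were reproduced, within a relative tolerance of 0.0001, by a whole number of ChIP fragments over the summit and an expected number from the input. The lists hold no sequencing totals. Library 1 had 83787 peaks with a median of 15 fragments, and library 2 had 28535 peaks with a median of 18. The genome background came to 2.38 fragments in library 1 and 2.41 in library 2. Each fold enrichment below is fragments over the expected number at the summit, with 1 added to both. In library 2 the fragments were first multiplied by 0.851, the scale that reproduced its list, and on that scale its background was 2.05. Intervals of fragments are exact 95% Poisson intervals and cover counting error only, and a summit is the highest point of its peak, so its count was selected to be high. All 10 AM marker genes examined had a region, among them Siglecf, Marco and Car4, against 31.6% of all protein-coding genes. Regions were at 2 of 8 lung epithelial, 1 of 8 lymphocyte, 1 of 6 neutrophil and 2 of 5 endothelial markers. The AM list includes Pparg itself, so its count is not an independent check of cell identity. A region at a gene is not a measure of its expression.

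**Figure D1:**
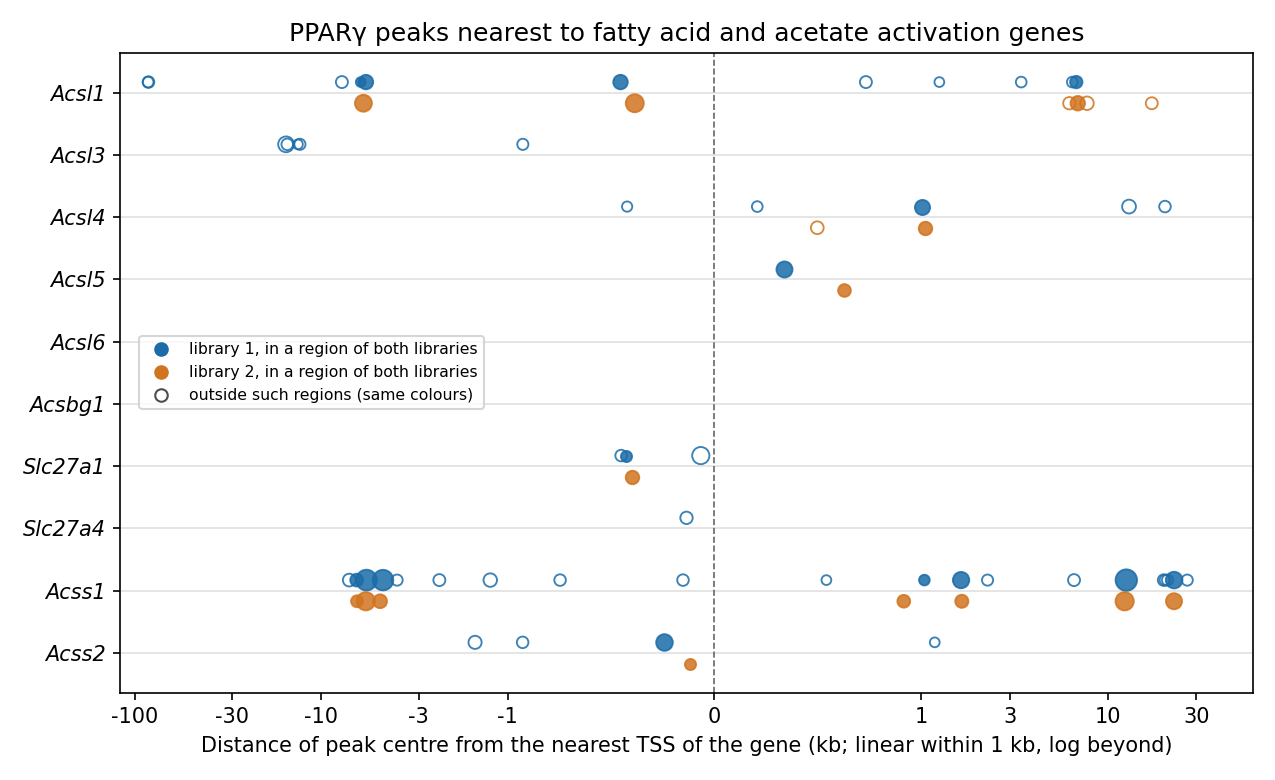
PPARγ peaks by gene and by distance of the peak centre from the TSS in kb (linear within 1 kb, log beyond), with library 1 above library 2 on each line and the area of a circle in proportion to its fragments. Filled circles lie in one of the 13 regions found in both libraries and open circles do not; Acss1 had 20 and 7 peaks in libraries 1 and 2, and Acsl6 and Acsbg1 had none.

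Among the transporters, Slc27a1 (FATP1), which carries long-chain fatty acids into muscle and fat cells, had 1 region and Slc27a4 (FATP4), a transporter and synthetase of gut and skin, had none. The Slc27a1 region, chr8:71568340-71568604, lay 0.399 kb upstream of a TSS and had a fold enrichment of 4.15 in library 1 and 4.29 in library 2. These rested on 13 fragments (6.92 to 22.2) and 19 fragments (11.4 to 29.7), and the lower of its percentiles among the peaks of each library was 25.3, so it was a weak region. Its window holds 1 PU.1 site, 9 bp from the library 1 summit. The strongest Slc27a1 peak was in library 1 alone, at chr8:71570386-71570671, centred 66 bp upstream of a downstream TSS, with a fold enrichment of 9.48 and 31 fragments (21.1 to 44.0). The nearest library 2 peak was 1782 bp away. Of 5437 library 1 peaks at or above that fold enrichment, 249 (4.58%) were in no region. Slc27a4 had a single library 1 peak, 0.135 kb upstream of its TSS, with a fold enrichment of 5.04 and 16 fragments (9.15 to 26.0).

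Acsl1, the main long-chain synthetase of fat, liver and heart and an established PPAR target there, had 3 regions, and all 3 had a higher fold enrichment in library 2 than in library 1. The promoter region, chr8:46470146-46471029, was centred 0.450 kb upstream of the first TSS, with fold enrichments of 6.81 and 9.82 in libraries 1 and 2. It had 22 fragments (13.8 to 33.3) in library 1 and 34 (23.5 to 47.5) in library 2, and the lower of its percentiles was 85.6. Its window carries C/EBP sites and 1 RUNX site. The second, chr8:46484769-46485404 in intron 1, lay 5.88 kb upstream of a downstream TSS, with fold enrichments of 4.0 and 6.63 from 22 and 30 fragments. The input-based expectation there was 4.75 fragments in library 1, against its genome background of 2.38. The third, chr8:46497608-46498048 in intron 2, had fold enrichments of 4.08 and 6.47 from 16 and 22 fragments. Here too the expectation in library 1 was above its background, at 3.17 fragments. The intervals of the 2 libraries overlapped at each Acsl1 region. Fold enrichment is best compared within a list, as the medians over all peaks differed, at 4.44 in library 1 and 5.07 in library 2.

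Acsl4, which prefers arachidonic acid and shapes the polyunsaturated phospholipids that take part in ferroptosis, had 1 region in intron 1, chrX:142389257-142389797, 1.01 kb into the gene. Its fold enrichment was 7.41 in library 1 (24 fragments, 15.4 to 35.7) and 5.63 in library 2 (19 fragments, 11.4 to 29.7). The window combines a PU.1 site with a C/EBP site directly beside an AP-1 site. Acsl5, a synthetase of mitochondria and endoplasmic reticulum, had 1 region over the 5′ UTR of exon 1, chr19:55253492-55254167, centred 0.460 kb into the gene. Its fold enrichment was 8.29 in library 1 (27 fragments, 17.8 to 39.3) and 5.07 in library 2 (17 fragments, 9.90 to 27.2). These were the only Acsl5 peaks in either list.

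The remaining activators of long and very long chains had no region. Acsl3, a synthetase of the endoplasmic reticulum and lipid droplets, had 5 library 1 peaks and no library 2 peak. The highest, 15.5 kb upstream, had a fold enrichment of 4.70 from 26 fragments, where the input-based expectation was 4.75 fragments, and the one closest to the TSS, 0.926 kb upstream, had 4.15 from 13 fragments. Acsl6, known from brain, and Acsbg1, known from brain and adrenal gland, had no peak in either library. In all, 8 of the 10 genes had a library 1 peak, against 60.6% of all genes, and 6 of 10 had a library 2 peak, against 34.9%.

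Acss1, the mitochondrial acetyl-CoA synthetase, had the most regions of the set when only TSSs of protein-coding genes were used, with 6 covering 5665 bp. A count of 6 or more was reached by 1 of the 10 genes and by 4.35% of all protein-coding genes. The highest regions were chr2:150654683-150656744 in intron 2, 12.5 kb into the gene, and chr2:150672530-150674497, 5.27 kb upstream of the TSS. The intronic one had fold enrichments of 14.5 and 10.1 in libraries 1 and 2, from 48 (35.4 to 63.6) and 35 (24.4 to 48.7) fragments. The upstream one had 13.6 and 10.1, from 45 (32.8 to 60.2) and 35 (24.4 to 48.7) fragments. Both had a lower percentile of 96.4 and shared rank 811 among the 20233 regions. The upstream region also held a second library 1 peak of 44 fragments whose fold enrichment was 3.99, because the input-based expectation there was 10.3 fragments.

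The other Acss1 regions were lower. A region 22.8 kb into the gene, chr2:150645201-150645755, had fold enrichments of 8.89 and 7.87, and its window holds an AGGTCA on the minus strand that overlaps a C/EBP site by 1 base, with an AP-1 site nearby. In intron 1, chr2:150666321-150666891 had 8.59 and 5.35, and chr2:150667161-150667448 had 3.85 and 5.07. The sixth, chr2:150674563-150674783, lay 6.43 kb upstream with 5.33 and 3.44. A noncoding gene, E130215H24Rik, starts close to the Acss1 promoter, and when noncoding TSSs are counted Acss1 keeps 2 of its 6 regions, fewer than the 3 of Acsl1. The regions it then loses all lie in introns 1 and 2 of Acss1 itself. Counted by overlap with the gene body or the 5 kb upstream of a TSS, Acss1 had 5 regions. Acss2, which makes acetyl-CoA in cytosol and nucleus, had 1 promoter region, chr2:155517611-155517999, 0.238 kb upstream of the TSS. Its fold enrichment was 8.89 in library 1 (29 fragments, 19.4 to 41.6) and 3.96 in library 2 (13 fragments, 6.92 to 22.2), the least even pair among the 13 regions, and its window holds none of the motifs.

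**Figure D2:**
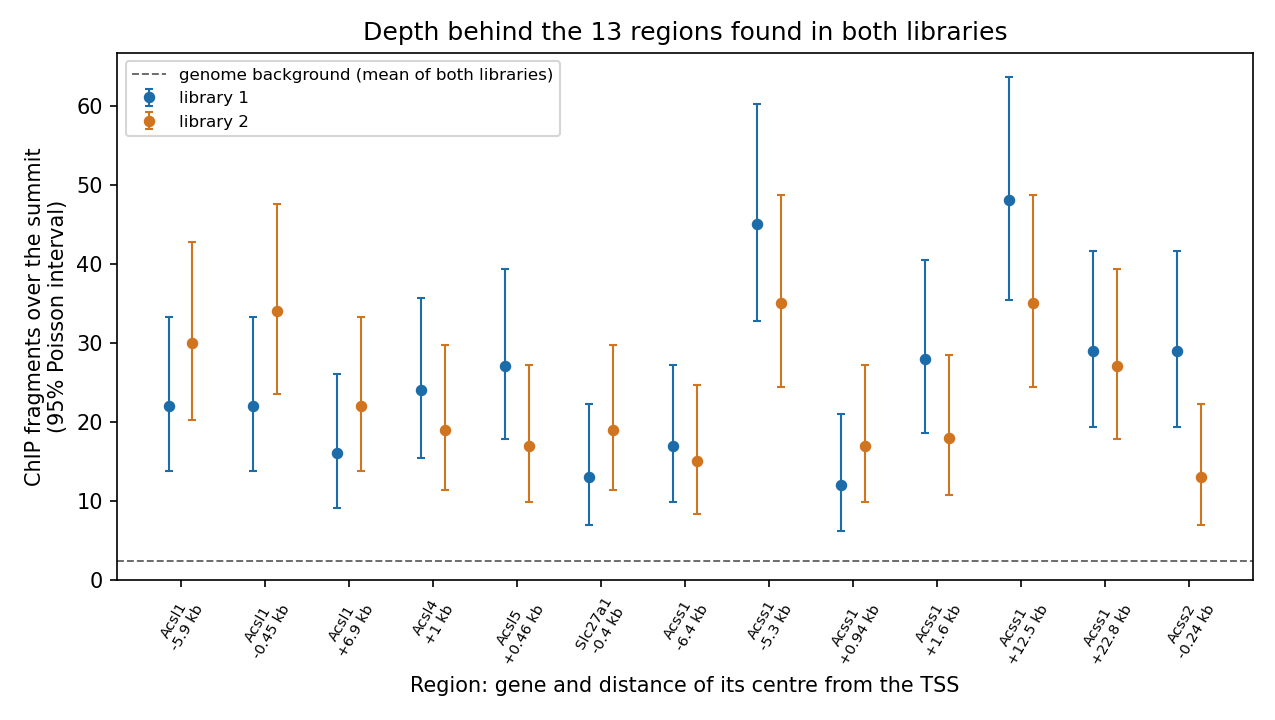
ChIP fragments over the summit in each of the 13 regions, named by gene and distance from the TSS, with library 1 and library 2 side by side, exact 95% Poisson intervals as bars and the genome background as a dashed line. The 2 highest regions, both at Acss1, reach 45 and 48 fragments in library 1 and 35 in library 2, and the intervals of the 2 libraries overlap in every region.

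Depth and input bore on these regions as follows. The intervals of the 2 libraries were apart in 0 of the 13 regions and in 3.22% of all regions. The input-based expectation was at the genome background in both libraries in 9 of the 13 (69.2%), against 64.1% of all regions, and stood above it in at least 1 library in the other 4. Of 50 library 1 peaks nearest to the 10 genes, 15 lay in a region, and of 18 library 2 peaks 14 did. Over whole lists these shares were 26.9% and 82.9%.

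The 13 regions were about as high as regions elsewhere. Their median fold enrichment was 7.41 in library 1 and 5.63 in library 2, against 6.81 and 5.35 over all regions, and their median lower percentile was 53.6 against 54.0. Both groups had a median of 19 fragments in library 2. Between libraries, fold enrichment correlated with a Spearman rho of 0.386 over the 13 regions, against 0.551 over all regions. The points are few and share their libraries. The fold enrichment was higher in library 2 in 5 of the 13 regions (38.5%) and in 28.2% of all.

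**Figure D3:**
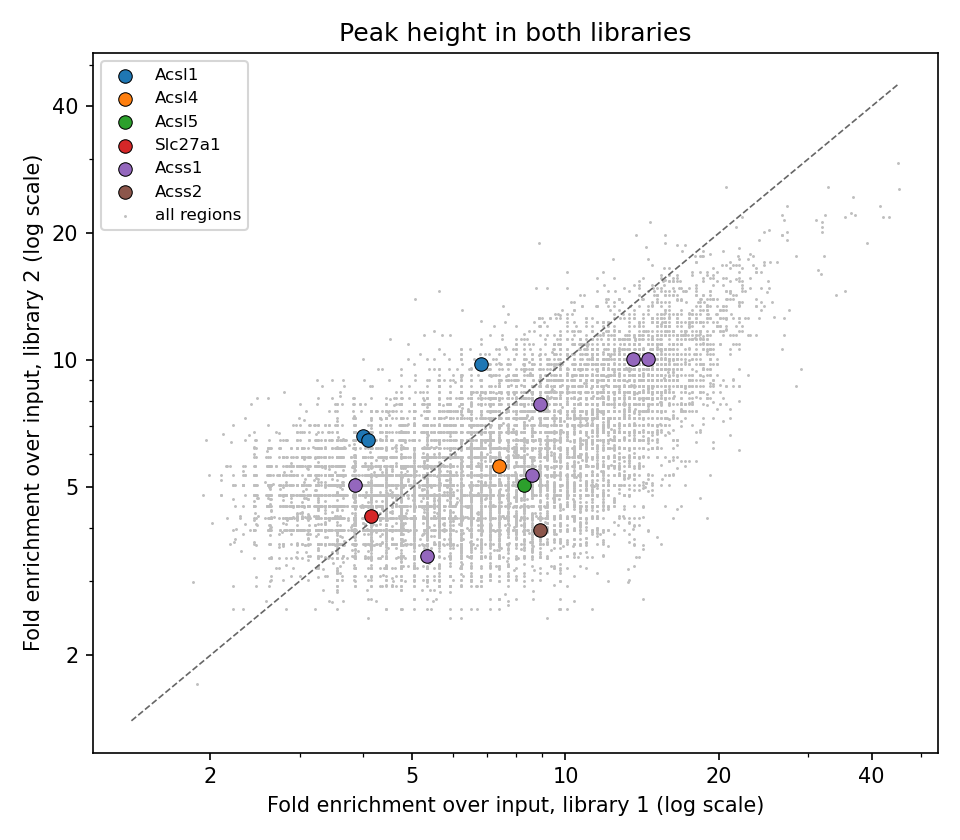
Fold enrichment over input in library 1 (x axis) and library 2 (y axis), both on log scales, for the regions of the 6 genes in colour and all 20233 regions in grey, with a dashed line of equal values. The 3 Acsl1 regions sit above the line, 2 Acss1 regions stand highest, and Acss2 lies farthest below the line among the coloured points.

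By median distance, the regions of these genes lay closer to a TSS than all regions. The median distance was 1.63 kb, against 8.46 kb over all regions, and 7 of 13 (53.8%, Wilson 95% interval 29.1 to 76.8) lay within 3 kb, against 36.6% of all regions (35.9 to 37.3). The interval of the 13 includes the share of all regions, so the difference could not be told from counting error. That interval treats the regions as independent, although most of them were at Acss1 and Acsl1. A region within 3 kb of a TSS was present at 6 of the 10 genes, which is all that had a region, against 22.8% of all protein-coding genes. The exceptions to promoter proximity were at Acsl1 and Acss1, which also held all of the regions beyond 3 kb.

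None of the 13 regions had a DR1 with at most 2 mismatches over its 12 fixed letters within 100 bp of a summit, against 6.91% of all regions. By the approximate rule of 3 counts over 13 regions, roughly a 95% limit, a count of 0 allows a share of up to 23.1%. A lack of DR1 was therefore not detectable at this number. Searching whole regions found 3 of 13, against 14.8% of all. The closest was AGGACAaAGGTCA with 1 mismatch, on the plus strand at chr2:150656360-150656372 in the Acss1 intron 2 region, 809 bp from the library 1 summit and 916 bp from that of library 2. Single AGGTCA sites, which an exact DR1 would also contain, were within 100 bp of a summit in 2 regions (15.4%), both in Acss1 intron 2, against 21.3% of all.

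Sites of other factors with roles in macrophages were also counted. C/EBP sites were found in 5 of 13 regions (38.5%), against 20.9% of all regions, and AP-1 sites in 5 (38.5%), against 14.0%. The regions with an AP-1 site were at Acss1 and Acsl4 only, most of them at Acss1, so Acss1 weighs heavily in that share. PU.1 sites were in 3 (23.1%), against 8.91%, and RUNX sites in 2 (15.4%), against 11.0%. At least 1 of these 4 was present in 10 of 13 (76.9%), against 44.4% of all. The exceptions were the highest upstream region of Acss1 and the regions of Acsl5 and Acss2. Most of the 10 were at Acss1 and Acsl1, so these genes weigh heavily in that share too. No interval was worked out for the shares of these 4 motifs. The sites are matches of letters in small numbers of windows and say nothing of which factors were bound. The median GC content of the windows was 48.8%, against 45.3% over all regions, and the median share of repeat-masked bases was 10.9% in both.

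**Figure D4:**
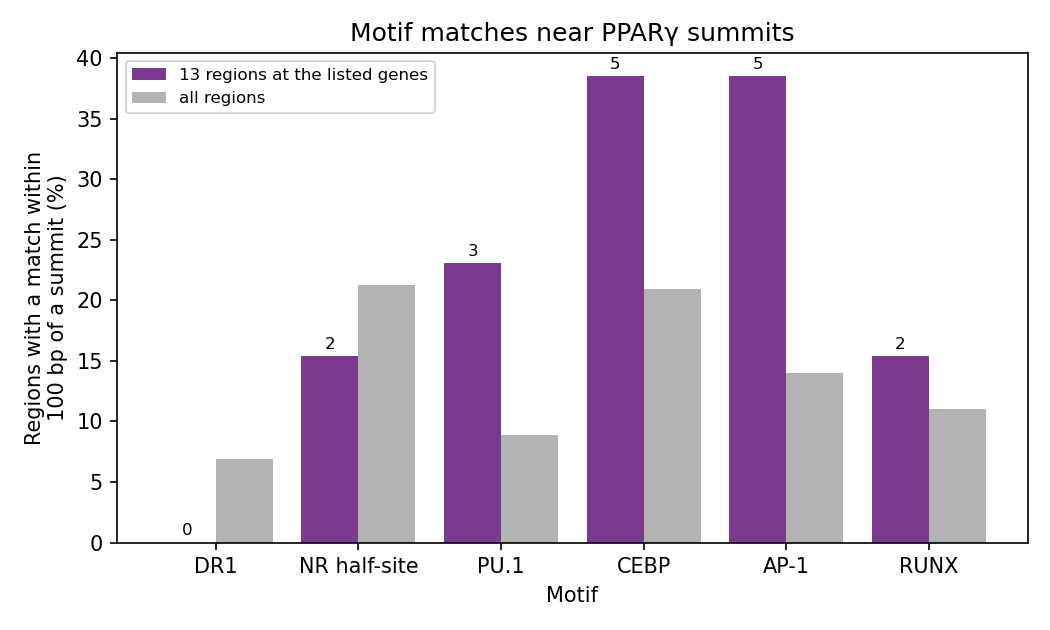
Share of regions (%) with a match to each motif within 100 bp of a summit of either library, for the 13 regions (left bars, number of regions on top) and all 20233 regions (right bars). DR1 allows 2 mismatches and the NR half-site is a single AGGTCA; C/EBP and AP-1 matches were in 5 of the 13 regions each and DR1 in none.

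Other genes of the pathway were counted in separate lists, which were chosen with earlier results of these data known. A difference in share between the lists is therefore not a result. Of 15 further acyl-CoA synthetases and SLC27 transporters, 3 had a region, against 31.6% of all genes: Slc27a3, Acsf2 and Aasdh, with 1 each. Of 18 genes for uptake, intracellular binding and use of fatty acids and acyl-CoA, 14 (77.8%) had one. The most regions were at Cd36, the scavenger receptor and fatty acid translocase, with 19, followed by the lipid chaperones Fabp5 with 8 and Fabp1 with 7, and by Cpt1a, which commits acyl groups to mitochondrial oxidation, with 6. Fabp3, Got2, Cav1 and Cpt1b had none.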

How the data were processed

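PPARγ HT-ChIPmentation peak lists of 2 AM libraries (83787 and 28535 peaks) were analysed. The 2 input libraries served the authors as controls and are not analysed here. The submitters' processing notes name bcl2fastq 2.20.0.422, CASAVA, cutadapt, Bowtie2, SAMtools, MACS3 and mm10. The authors called peaks per library at a q-value of 0.05, without pooling. The deposited lists give a fold enrichment (a linear ratio over input), p-values and q-values as −log10, and a score, 10 times the −log10 q-value without decimals.

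Fragments were worked out from the fold enrichment and p-value by the formulas of the peak caller (a Poisson tail, pseudocount of 1, ChIP scale of 1 in library 1 and 0.851 in library 2), which was tested on simulated data. In library 2, 46 peaks had more than 1 solution and the closest was used. Whether the caller counted whole fragments or extended reads is not given in the sources used here. Peaks overlapping by at least 1 bp were merged, regions with peaks of both libraries kept, and each given to the nearest curated RefSeq TSS of a protein-coding gene (GRCm38.p6). Python 3.11.15, numpy 2.4.6, scipy 1.17.1, statsmodels 0.14.6 and matplotlib 3.10.9 were used. With 1 group there was no contrast, so no test between groups was made.

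All 10 genes are named. The best region of a gene is the one whose lower percentile of fold enrichment, of the percentiles in each library, is highest. Of the pathway lists, up to 4 genes with most regions are named, and those without a region where 5 or fewer. Genes and lists were chosen with earlier results of these data known. Alternatives changed the peak threshold, overlap rule, library, gene assignment and motif window.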

Additional observations from a re-analysis of the deposited data

How the results depend on the processing

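The number of genes with a region stayed within 1.5 times of 6 under all alternatives but one: it was 3 (Acsl1, Slc27a1 and Acss1) when peaks had to overlap reciprocally by 50%, a setting under which the share of all protein-coding genes with a region was 22.4%, against 31.6%. The 13 regions became 7, at 4 genes, at a fold enrichment of 5 or more in both libraries. Under that setting 22.7% of all protein-coding genes had a region. With summits at most 100 bp apart they became 7, at 5 genes, and the share of all protein-coding genes was 24.2%. Both shares were below the 31.6% of the main setting, so these settings also took regions from genes outside the list. Leaving out each library in turn left peaks of a single library in place of regions. Library 1 alone had 50 peaks at 8 genes, with a peak at 60.6% of all genes. Library 2 alone had 18 peaks at 6 genes, with a peak at 34.9% of all genes. Within 3 kb of a TSS lay 48.0% of the 50, against 31.6% of all library 1 peaks. For the 18 the share was 44.4%, against 34.5% of all library 2 peaks. Acsl3 and Slc27a4 entered with library 1 alone, and Slc27a1 and Acss2 left at a fold enrichment of 5. A DR1 anywhere in the merged region was found in 3, against 0 near summits. The median fold enrichment was 5.63 in library 2. No paired analysis was possible because the input libraries are not analysed here and the ChIP libraries form 1 group. Library 2 had fewer peaks, so a gene without a library 2 peak may have a weak site below its threshold.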

Other observations

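Regions of varied height also lay within 50 kb of these genes but nearer to another TSS, and none of them was inside the body of a listed gene. For scale, the medians over all regions were 6.81 in library 1 and 5.35 in library 2. The region nearest to Cenpu, beside Acsl1, had fold enrichments of 16.0 and 16.5 in libraries 1 and 2, above every region of Acsl1 itself. Beside Slc27a4, which had no region, the regions of Gm13547 (15.7 and 13.0), Trub2 (11.6 and 3.83) and Urm1 (7.70 and 5.35) stood around the gene. Beside Slc27a1 there were 6 regions nearest to Colgalt1, the highest with 10.7 and 11.2. Others were nearest to Vti1a beside Acsl5 (5.63 and 5.07), Apmap beside Acss1 (3.36 and 4.24) and Ncoa6 beside Acss2 (5.33 and 6.19). Which gene such a region acts on was not tested.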
